A study of Mus musculus with 16 samples.

Results

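The genes described here are 35 lysosome genes other than cathepsins, picked by symbol from the 54532 entries of a mouse brain count table. They comprise 9 membrane proteins, 9 glycosidases, 4 sulfatases, 4 lipid hydrolases and activators, the peptidase Tpp1 with the progranulin gene Grn, 5 parts of the proton pump and the transcription factors Tfeb and Tfe3. All 35 passed the filter on low counts, which kept 17736 genes for testing. The RNA was taken from 9-month-old female mice, and 4 groups hold 4 libraries each, 16 in all.

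The groups cross Ch25h genotype with tau status. Ch25h+/+ mice had the gene of the enzyme cholesterol 25-hydroxylase and Ch25h-/- mice lacked it, and each genotype was labelled either Tau- or Tau+. The labels do not state that Tau- mice lack the mouse's own tau gene. Below, with tau and without tau stand for the labels Tau+ and Tau-. The tau allele, its promoter, the cells it is made in, and whether a sample was 1 animal or a pool are not given in the sources used here. Nothing states that the libraries of a group came from separate animals. A p-value here sets a group difference against the spread between libraries, estimated over all groups, which may not be the spread between animals.

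The lysosome is the acidic compartment in which cells break down proteins, glycans, lipids and engulfed debris. Its soluble hydrolases work at the low pH that a proton-pumping ATPase maintains, and heavily glycosylated membrane proteins line its inner face. Inherited loss of single hydrolases causes storage disease with damage to neurons, and in brain tissue both neurons and microglia, the resident phagocytes, are rich in lysosomes. TFEB and TFE3 bind an E-box element in the promoters of many lysosome genes.

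Depth was 15530352 to 25602500 counts per library, and every one of the 35 genes had at least 111 counts in each library. The labels name frontal cortex and the text of the series names hippocampus. Summed CPM (counts scaled to a common library size) was 629 to 851 for 6 cortex markers and 157 to 329.7 for 6 hippocampus markers. Sums over different genes do not show which tissue was taken. Ch25h had 5 to 30 counts in each Ch25h+/+ library and 0 in all 8 Ch25h-/- libraries, and Prnp, whose promoter drives some tau transgenes, was at 708 to 839 CPM in Tau- and 1414 to 1935 CPM in Tau+. A ribosomal RNA transcript took 2289 to 5684 CPM in 7 libraries, all of them Ch25h-/-, and 111 to 475 CPM in the other 9. Only Ch25h-/- Tau+ replicate 1 was a Ch25h-/- library with little of it, so this library class and loss of Ch25h can hardly be told apart. None of the 35 genes lies on chromosome 19, which carries Ch25h.

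Promoter sequences are shown first, because Tfeb and Tfe3, which bind the E-box, are themselves among the members. RefSeq (GRCm38.p6) windows from 250 bases before to 50 bases after the start were found for 32 of the 35 genes. The E-box CACGTG, searched on both strands, lay in 11 of the 32 windows, or 34.4%, against 8.10% of 27025 genes. The longer form TCACGTG, which contains the E-box, lay in the same 11 windows, against 4.30% of genes. The holders were Arsa, Atp6v0d1, Atp6v1a, Cln3, Gaa, Gla, Glb1, Lamp1, Mcoln1, Naglu and Sgsh. Lamp1, a major glycoprotein of the lysosomal membrane, had 4 copies within 72 bases just upstream of its start, at chr8:13159086-13159157 (plus strand), with the E-boxes in capitals:
Lamp1: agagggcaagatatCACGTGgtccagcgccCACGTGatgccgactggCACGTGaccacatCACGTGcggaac
Single sites are shown for Naglu, the holder that passed the edgeR test in comparisons below, at chr11:101070009-101070037 (plus strand), for the calcium channel gene Mcoln1 at chr8:3500462-3500491 (plus strand), and for the pump subunit gene Atp6v1a at chr16:44139373-44139402 (minus strand), with the longer form and its reverse complement in capitals:
Naglu: caaccttcaggTCACGTGgcccgaggtcg
Mcoln1: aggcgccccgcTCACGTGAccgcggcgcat
Atp6v1a: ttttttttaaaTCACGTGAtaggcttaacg
A match is a run of letters in the window and does not show that a factor binds there. These windows follow the RefSeq start. In the GENCODE M21 annotation the capitals shown for Naglu, Mcoln1 and Atp6v1a lie inside the gene, after its start.

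Levels of different genes were compared per kilobase of exon, as CPM per kb. Psap, the precursor of the saposins that present sphingolipids to their hydrolases, was highest at 638 ± 60.1 CPM per kb (SD over 16 libraries). The pump genes Atp6v1b2 (125 CPM per kb), Atp6v0d1 (117 CPM per kb) and Atp6ap1 (109 CPM per kb) followed, then Lamp1 (104 CPM per kb), the iduronate sulfatase gene Ids (96.9 CPM per kb), the pump gene Atp6v1a (85.3 CPM per kb) and the glycogen-degrading Gaa (76.4 CPM per kb). Below Gaa the level dropped to 30.1 CPM per kb for Hexa, the alpha subunit of beta-hexosaminidase. Tfeb was lowest at 1.81 CPM per kb. Of the 34 neighbouring pairs in this order 32 overlapped in their ranges over the libraries, and the pairs that did not were Psap with Atp6v1b2 and Gaa with Hexa.

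**Figure D1:**
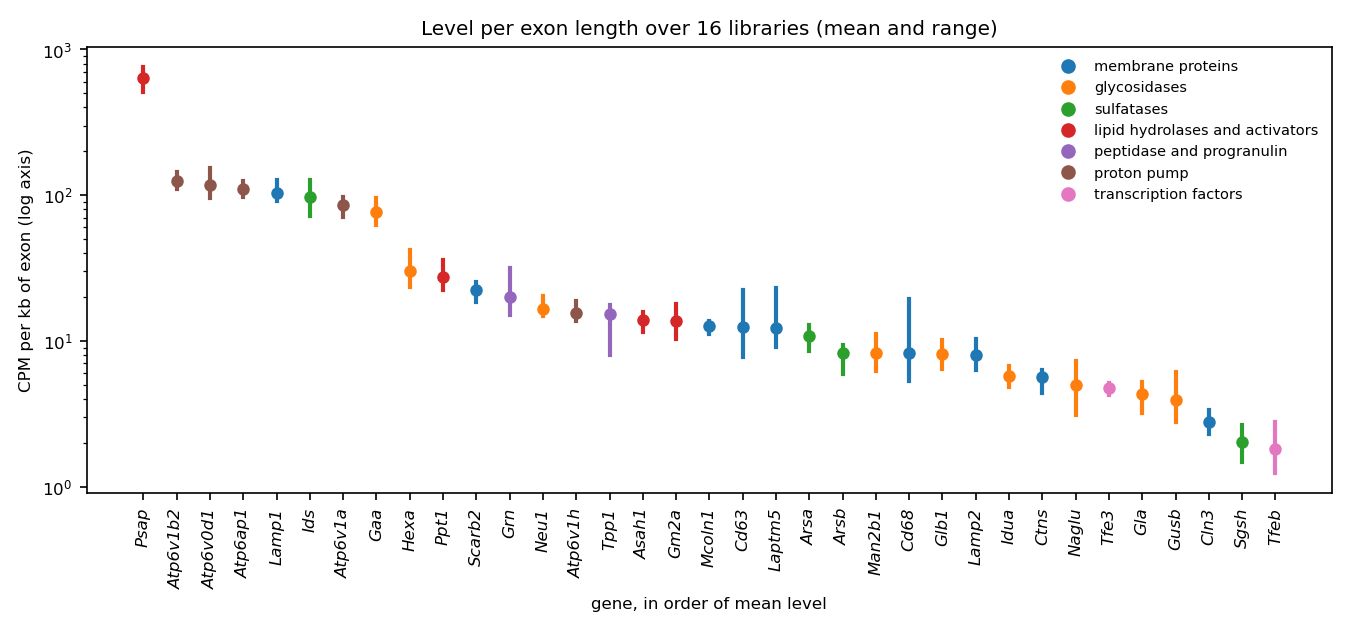
Level of each of the 35 genes in CPM per kb of exon (log axis), ordered by mean; points are means and bars the range over 16 libraries, coloured by role. Psap stands above the rest at 638 CPM per kb, and 4 of the next 7 genes are proton pump genes.

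The spread across the 16 libraries was widest in Cd68, with a coefficient of variation of 48.7%, followed by Laptm5 (31.6%), Cd63 (29.5%) and Grn (24.2%). The narrowest was 6.0% in Atp6ap1, an accessory protein of the pump.

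The tau effect in Ch25h+/+ compares Tau+ with Tau- mice where Ch25h is present. Of the 35 genes 5 rose and 0 fell (adjusted p under 0.05, edgeR quasi-likelihood test, Benjamini-Hochberg), against 1.47% of all tested genes that rose. The 5 were the membrane protein genes Cd68 and Laptm5, the glycosidase genes Naglu and Man2b1, and Grn. The log2 fold change was above 0 in 29 of the 35 genes, against 47.8% of all genes, with a median of 0.12 against -0.01 over all genes. All Tau+ libraries lay above all Tau- libraries in 11 of the 35, against 3.89% of all genes.

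Among the membrane proteins, Cd68 (chr11:69664213-69666153) encodes macrosialin, a LAMP-like protein of macrophages and microglia. It was at 7.72, 6.89, 7.81 and 7.56 CPM in Ch25h+/+ Tau- and at 14.9, 15.6, 15.4 and 24.5 CPM in Ch25h+/+ Tau+. Every Tau+ library lay above every Tau- library, and replicate 4 stood well above the other Tau+ libraries. The log2 fold change was 1.23 with a standard error of 0.19 (edgeR quasi-likelihood test, adjusted p = 0.00136), and 1.03 without that library. Laptm5 (chr4:130913125-130936141) encodes a lysosomal membrane protein of blood-derived and microglial cells. It was at 40.9, 39.1, 42.5 and 39.5 CPM without tau and at 60.5, 60.1, 65.8 and 87.0 CPM with tau. The groups did not overlap, and replicate 4 was again the highest. Its log2 fold change was 0.75 with a standard error of 0.11 (edgeR quasi-likelihood test, adjusted p = 0.00108).

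Of the other 7 membrane protein genes none passed the test. Cd63, a tetraspanin of late endosomes and exosomes, came closest with a log2 fold change of 0.59 and an adjusted p of 0.0533 (edgeR quasi-likelihood test), and Mcoln1 was nearest to 0 at -0.03. Lamp1 (0.24), Lamp2 (0.38) and Cd63 had Tau+ libraries that lay above all Tau- libraries without passing. Scarb2, the receptor that carries glucocerebrosidase to the lysosome, was at 0.17, the cystine exporter gene Ctns at -0.11 and Cln3, mutated in juvenile neuronal ceroid lipofuscinosis, at -0.08.

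Man2b1 (chr8:85083270-85098282), the lysosomal alpha-mannosidase gene, was at 64.1, 61.5, 59.3 and 62.8 CPM in Ch25h+/+ Tau- and at 75.4, 83.0, 76.5 and 89.5 CPM in Ch25h+/+ Tau+. Naglu (chr11:101070012-101077672), which encodes a hydrolase of heparan sulfate, was at 12.2, 11.7, 14.2 and 11.4 CPM without tau and at 18.2, 17.3, 16.8 and 19.3 CPM with tau. For both glycosidases the libraries separated fully. The log2 fold changes were 0.39 (standard error 0.08, adjusted p = 0.0154) for Man2b1 and 0.54 (standard error 0.11, adjusted p = 0.0168) for Naglu in the edgeR quasi-likelihood test. Both calls were lost without Ch25h+/+ Tau+ replicate 4, with adjusted p of 0.0790 for Man2b1 and 0.0812 for Naglu, and the Naglu call also in 3 other fits that left out 1 Ch25h+/+ Tau- library each. The other 7 glycosidase genes had log2 fold changes of 0.02 (the sialidase Neu1) to 0.42 (the beta-glucuronidase Gusb), all above 0, and Gusb missed the threshold with an adjusted p of 0.0512 (edgeR quasi-likelihood test). Hexa and the beta-galactosidase gene Glb1 also had separate libraries without passing.

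Grn (chr11:102430315-102437048) encodes progranulin, which is delivered to the lysosome and cut there into granulins. Its level was 64.8, 62.3, 61.1 and 61.9 CPM in Ch25h+/+ Tau- and 109.5, 89.3, 84.8 and 100.3 CPM in Ch25h+/+ Tau+. The lowest Tau+ library was above the highest Tau- library by more than the whole range of the Tau- group. The log2 fold change was 0.62 with a standard error of 0.10 (edgeR quasi-likelihood test, adjusted p = 0.00138). Tpp1, the tripeptidyl peptidase gene described beside it, did not pass (log2 fold change -0.12). Ch25h+/+ Tau+ replicate 3 was at 41.2 CPM where all other 15 libraries were at 69.2 to 91.0, and without it the value turned to 0.07. Tpp1 was singled out after its values were seen.

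The proton pump genes had the narrowest range of the 7 roles, around 0. The pump couples ATP hydrolysis by its V1 sector, to which Atp6v1a, Atp6v1b2 and Atp6v1h belong, to proton transport through the V0 sector, to which Atp6v0d1 belongs. Their log2 fold changes were -0.02 to 0.03 with standard errors of 0.07 to 0.10, so that approximate 95% intervals ran from -0.20 at the lowest to 0.21 at the highest. The 5 genes summed to 1677 to 1982 CPM in Ch25h+/+ Tau- and 1753 to 2090 CPM in Ch25h+/+ Tau+, which overlap.

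The sulfatase genes were at -0.08 (Ids) to 0.11 (Arsa, arylsulfatase A) and the lipid hydrolase and activator genes at 0.12 (Psap) to 0.25 (Gm2a, the GM2 activator), and none of these 8 passed. The transcription factor genes did not pass, with Tfeb at 0.28 and Tfe3 at 0.08. Holders of the TCACGTG run had a median log2 fold change of 0.06 (11 genes, 1 past the threshold) and the 21 genes whose windows lacked it had 0.21 (4 past the threshold), as a description with no test.

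**Figure D2:**
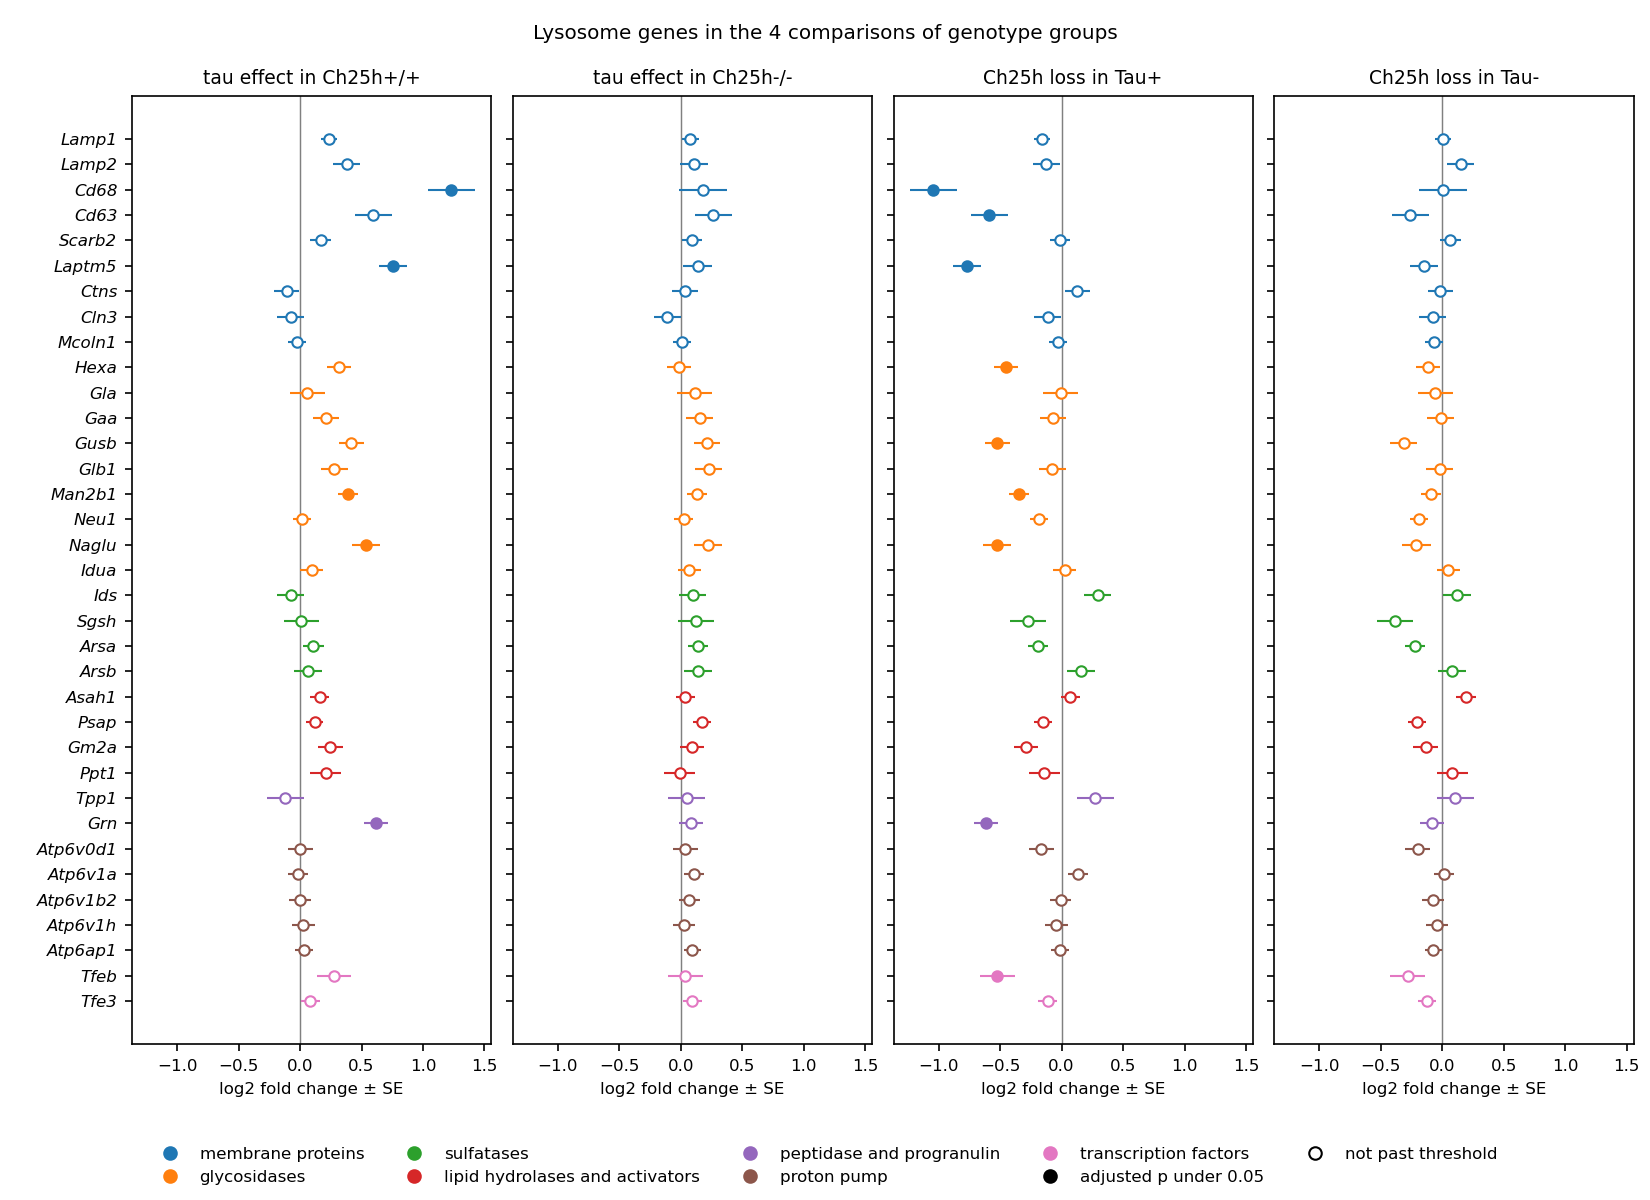
Log2 fold change ± standard error of each gene in 4 comparisons, ordered and coloured by role; filled points have an adjusted p under 0.05. Filled points are 5 to the right for tau in Ch25h+/+, 9 to the left for Ch25h loss in Tau+ and 0 in the other panels, and the 5 pump genes lie between -0.20 and 0.14 throughout.

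Levels of cell type markers moved beside these results. Summed over 12 microglia markers, the Ch25h+/+ libraries held between 357 and 374 CPM without tau and between 565 and 686 CPM with it. The Ch25h-/- libraries held between 304 and 365 CPM without tau and between 332 and 409 CPM with it, and no marker was at 0 throughout a group. Of the 12, 6 rose with tau in Ch25h+/+ and 0 fell, with a median of 0.51. Csf1r, the receptor for a microglial growth factor, had a log2 fold change of 0.50, the complement gene C1qa 1.35 and the resting-state marker P2ry12 0.17, which did not pass. Cd68 and Laptm5 thus lay between P2ry12 and C1qa. In bulk tissue more cells of a type and more RNA per cell cannot be told apart, and the part of microglia in the lysosome gene results was not tested. Of 8 astrocyte markers Gfap alone rose in Ch25h+/+ (log2 fold change 2.46), while all 8 were above 0 with a median of 0.24 and 4 had an unadjusted p under 0.05, and of the oligodendrocyte, neuron, endothelium and choroid plexus markers 0 passed in any comparison. All 7 oligodendrocyte markers were above 0 with tau, with a median of 0.28 in Ch25h+/+ and 0.27 in Ch25h-/-. All 7 were below 0 for Ch25h loss, with a median of -0.35 in Tau+ (4 at an unadjusted p under 0.05) and -0.28 in Tau-, and their part in the lysosome gene results was not tested. The choroid plexus sum differed widely inside every group, with Ch25h+/+ libraries between 15.1 and 1428 CPM without tau and between 34.7 and 2292 CPM with it. The Ch25h-/- libraries lay between 43.3 and 1626 CPM without tau and between 55.6 and 2753 CPM with it. The median log2 fold change of these markers with tau in Ch25h-/- was 1.33, and their part in the lysosome gene results was not tested. Of 6 hippocampus markers 5 were below 0 with tau in Ch25h-/- (median -0.30), and 5 were above 0 for Ch25h loss in Tau- (median 0.44). In both comparisons 2 had an unadjusted p under 0.05 in the edgeR quasi-likelihood test and 0 passed, and their part was not tested.

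Without Ch25h, tau was compared between the Ch25h-/- groups. Here 0 of the 35 genes passed in the edgeR quasi-likelihood test, against 0.0395% of all genes, and DESeq2 and limma-voom called 0. In the edgeR test 1 of the 35 had an unadjusted p under 0.05, against 652 of 17736 genes tested. Cd68 was at 8.43, 7.65, 7.47 and 6.64 CPM in Ch25h-/- Tau- and at 6.85, 12.9, 7.10 and 7.49 CPM in Ch25h-/- Tau+. The groups overlapped, and 1 Tau+ library was far above the other 3. The log2 fold change was 0.18 with a standard error of 0.20. Laptm5 was at 38.1, 34.4, 36.0 and 37.5 CPM without tau and 36.1, 47.9, 34.6 and 42.3 CPM with tau, with a log2 fold change of 0.14 and a standard error of 0.12. Grn was at 60.2, 52.1, 60.8 and 63.1 CPM without tau and 64.0, 74.2, 57.3 and 54.7 CPM with tau, with a log2 fold change of 0.08. In all 3 genes each Tau+ library lay within the Tau- range or above it. The log2 fold changes of Naglu (0.22) and Man2b1 (0.13) were above 0 without passing.

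Small positive values were common in Ch25h-/-. The log2 fold change was above 0 in 32 of the 35 genes, against 52.8% of all genes, with a median of 0.09 against 0.01. The largest was 0.27 in Cd63 and the lowest -0.11 in Cln3, and the pump genes were at 0.03 (Atp6v1h) to 0.11 (Atp6v1a). Psap was at 1496, 1614, 1400 and 1672 CPM in Ch25h-/- Tau- and at 1701, 1737, 1688 and 1838 CPM in Ch25h-/- Tau+. Its libraries did not overlap, as was also so for Scarb2 and Naglu, where 1.14% of all genes were higher without overlap. The log2 fold change of Psap was 0.17 with a standard error of 0.07 (unadjusted p = 0.0294, adjusted p = 1.0 in the edgeR quasi-likelihood test). Without Ch25h-/- Tau+ replicate 1, which leaves only rRNA-rich libraries in this comparison, Cd68 was at 0.27, Laptm5 at 0.18 and Grn at 0.06, and again 0 of the 35 genes passed. Without Ch25h-/- Tau+ replicate 2, the highest Tau+ library in these 3 genes, Cd68 turned to -0.09 and Grn to -0.01, and Laptm5 was at 0.04.

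Ch25h loss in Tau+ compares Ch25h-/- Tau+ with Ch25h+/+ Tau+ and asks what the enzyme's absence changes beside tau. Of the 35 genes 9 fell and 0 rose (edgeR quasi-likelihood test, Benjamini-Hochberg), against 2.4% of all tested genes that fell. They were the membrane protein genes Cd68, Laptm5 and Cd63, the glycosidase genes Gusb, Hexa, Naglu and Man2b1, Grn, and Tfeb. The median over the 35 was -0.12 against 0.004 over all genes, and 7 genes were above 0, against 50.7% of all genes. The 5 genes that rose with tau in Ch25h+/+ are among the 9, but the 4 Ch25h+/+ Tau+ libraries enter both tests, so the overlap is no independent observation.

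Cd68 was at 6.85, 12.9, 7.10 and 7.49 CPM in Ch25h-/- Tau+, all below the 14.9 to 24.5 CPM of Ch25h+/+ Tau+, with a log2 fold change of -1.04 (standard error 0.19, edgeR quasi-likelihood test, adjusted p = 0.00778). That is 0.485 times the Ch25h+/+ Tau+ level. Laptm5 was at 34.6 to 47.9 CPM against 60.1 to 87.0 CPM, with a log2 fold change of -0.77 (standard error 0.11, edgeR quasi-likelihood test, adjusted p = 0.00151). Grn was at 54.7 to 74.2 CPM against 84.8 to 109.5 CPM, with a log2 fold change of -0.62 (standard error 0.10, edgeR quasi-likelihood test, adjusted p = 0.00205). In each of these genes the Ch25h-/- Tau+ mean (8.59 CPM for Cd68, 40.2 CPM for Laptm5 and 62.6 CPM for Grn) was near that of Ch25h+/+ Tau- (7.49, 40.5 and 62.5 CPM).

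Of the glycosidase genes, Gusb (chr5:129989011-130003049) was at 15.5, 17.5, 16.9 and 15.6 CPM in Ch25h-/- Tau+ against 22.3, 19.8, 24.1 and 27.7 CPM in Ch25h+/+ Tau+, a log2 fold change of -0.52 (standard error 0.11, edgeR quasi-likelihood test, adjusted p = 0.0145). Hexa (chr9:59539540-59565109) was at 57.2, 55.9, 55.0 and 46.4 CPM against 77.5, 70.4, 62.1 and 83.7 CPM, a log2 fold change of -0.45 (standard error 0.10, edgeR quasi-likelihood test, adjusted p = 0.0198). Neither gene's groups overlapped. Naglu was at 12.6, 12.2, 12.8 and 12.1 CPM against 16.8 to 19.3 CPM (log2 fold change -0.53, standard error 0.11, edgeR quasi-likelihood test, adjusted p = 0.0210). Man2b1 was at 64.2, 62.3, 59.6 and 69.1 CPM against 75.4 to 89.5 CPM (log2 fold change -0.35, standard error 0.08, edgeR quasi-likelihood test, adjusted p = 0.0310). These groups did not overlap either, which makes 7 of the 35 genes with all Ch25h-/- Tau+ libraries lower, against 5.74% of all genes. The remaining 5 glycosidase genes were at -0.19 (Neu1) to 0.02 (Idua, alpha-L-iduronidase) and did not pass, with the alpha-galactosidase gene Gla nearest to 0 at -0.01.

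Cd63 (chr10:128900989-128912822) was at 37.6, 40.6, 42.5 and 48.7 CPM in Ch25h-/- Tau+ and at 65.5, 58.9, 47.7 and 82.4 CPM in Ch25h+/+ Tau+. Tfeb (chr17:47737030-47792419) was at 10.8, 7.60, 8.35 and 8.87 CPM against 13, 10.5, 12.2 and 15.6 CPM. In both genes 1 library of each group crossed over. Cd63 passed with a log2 fold change of -0.59 (standard error 0.15, edgeR quasi-likelihood test, adjusted p = 0.0396) and Tfeb with -0.52 (standard error 0.14, edgeR quasi-likelihood test, adjusted p = 0.0497). Tfeb no longer passed in 13 of 16 fits with 1 library omitted, and its log2 fold change ran from -0.65 to -0.42 over the 16. Tfe3 did not pass, at -0.11.

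**Figure D3:**
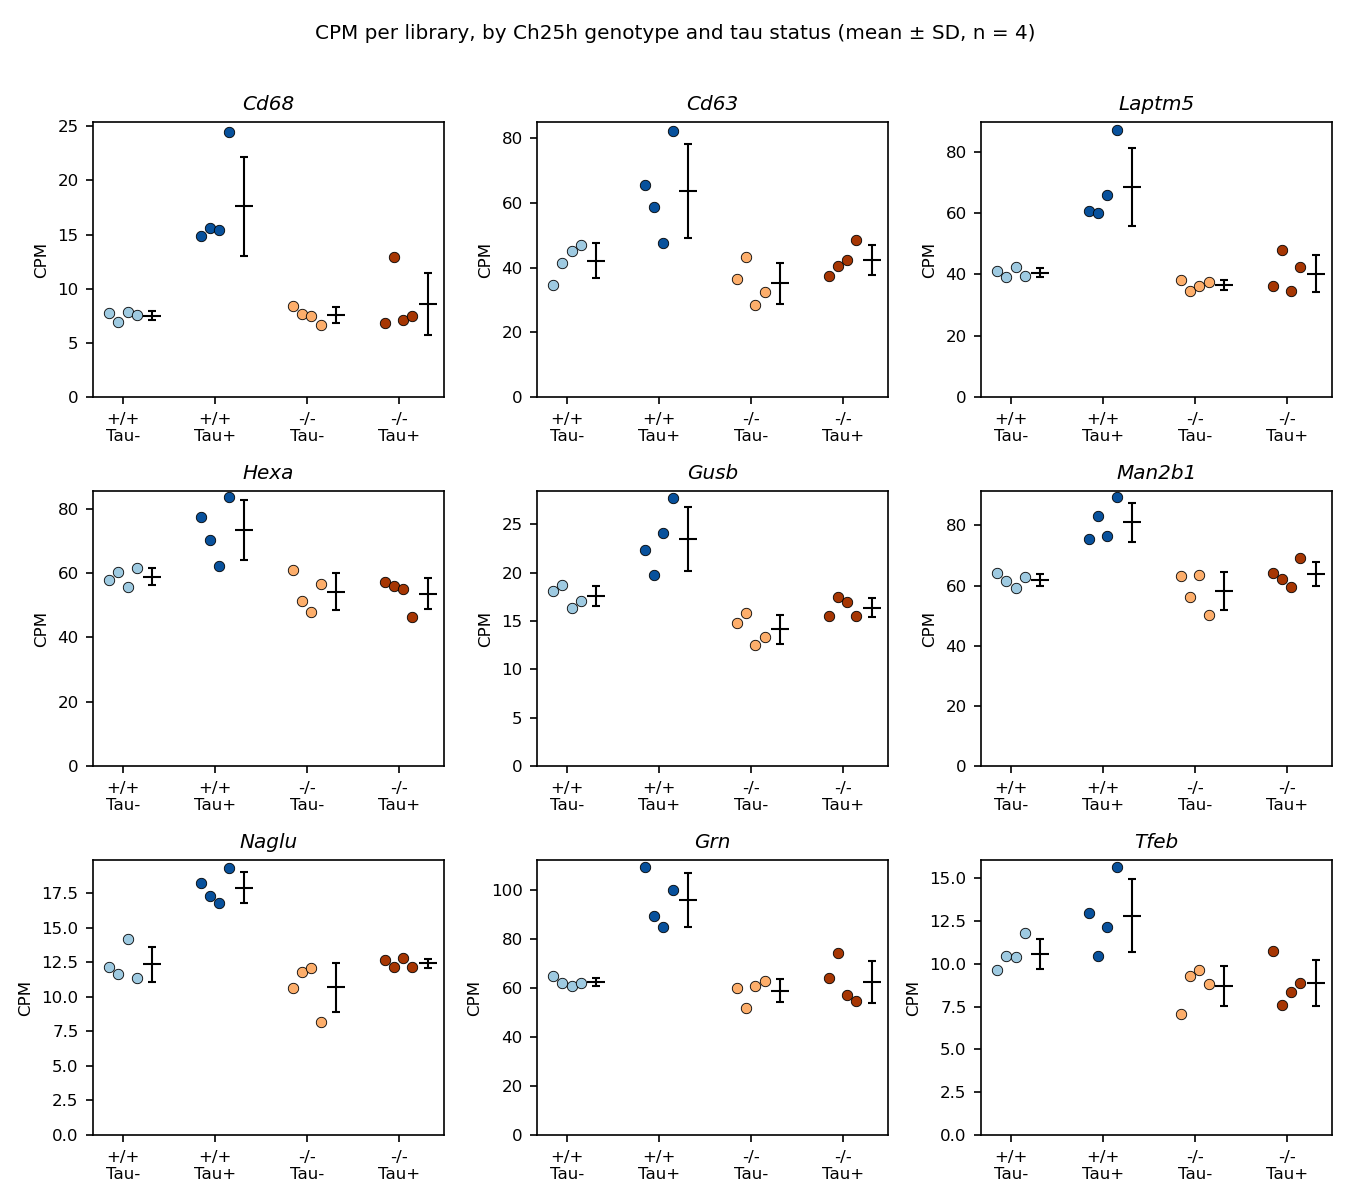
CPM of the 9 genes that passed in at least 1 comparison, per library, in the 4 groups; bars give mean ± SD (n = 4) and axes start at 0. Ch25h+/+ Tau+ has the highest mean for each gene, and the 3 other groups lie at like levels for Cd68, Laptm5 and Grn.

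The 26 genes that passed in neither comparison had log2 fold changes of -0.29 (Gm2a) to 0.29 (Ids) for Ch25h loss in Tau+. Ids, at 368 to 522 CPM in Ch25h+/+ Tau+ and 458 to 643 CPM in Ch25h-/- Tau+, had the highest value of the 35. Among the pump genes the range was -0.17 (Atp6v0d1) to 0.14 (Atp6v1a), with an adjusted p of at least 0.331 (edgeR quasi-likelihood test), and the summed level was 1785 to 2031 CPM in Ch25h-/- Tau+. Sulfatases were at -0.27 (Sgsh, which removes sulfate from heparan) to 0.29, and lipid hydrolases and activators at -0.29 to 0.07 (the acid ceramidase gene Asah1). The median was -0.11 in the 11 holders of the TCACGTG run and -0.15 in the 21 genes without it, and of the 9 genes that fell only Naglu held it.

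**Figure D4:**
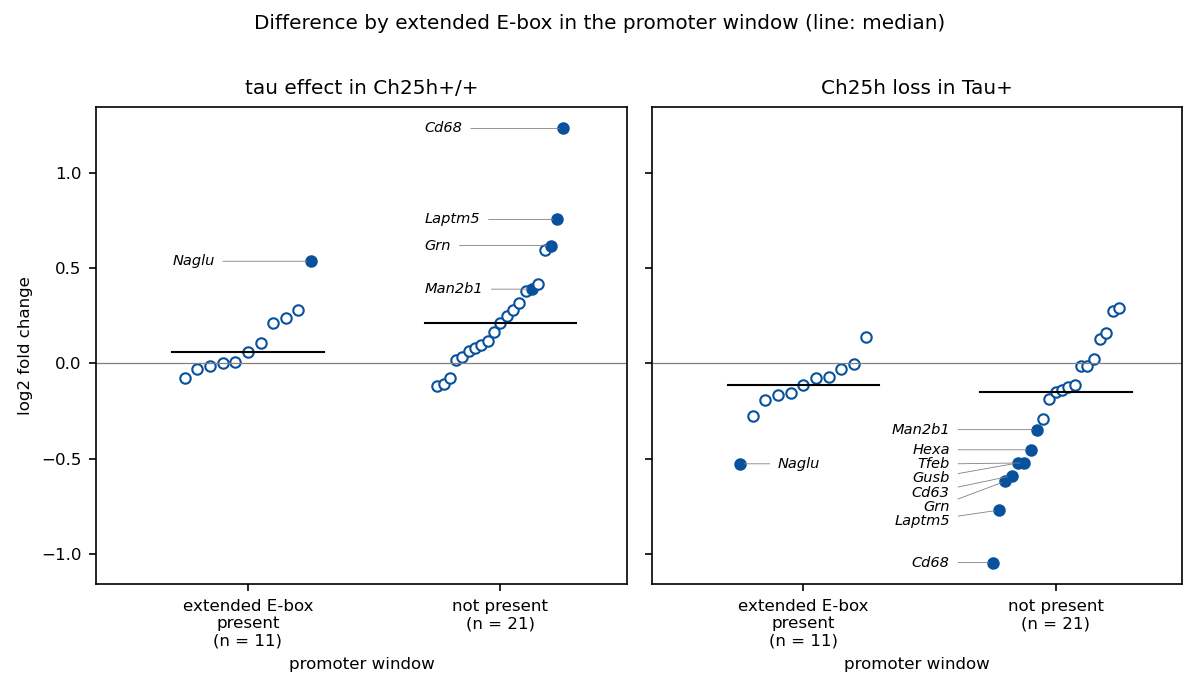
Log2 fold change of the 32 genes with a RefSeq promoter window, split by presence of the extended E-box; filled points have an adjusted p under 0.05 and lines are medians. With tau in Ch25h+/+ the medians are 0.06 with the run and 0.21 without, and for Ch25h loss in Tau+ they are -0.11 and -0.15.

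The falls were also read beside the library class. Only Ch25h-/- Tau+ holds libraries of both classes, so a covariate for library class is estimated inside that group alone. The loss values of that fit therefore set Ch25h-/- Tau+ replicate 1 against the 4 Ch25h+/+ Tau+ libraries. There the 9 calls were lost, and the log2 fold changes were -1.36 to -0.25, all below 0. Cd68 was at -1.36, Laptm5 at -0.92, Grn at -0.58 and Tfeb at -0.25. Replicate 1 is the single rRNA-poor library without Ch25h, so its position is no second observation beside that fit. It was below all 4 Ch25h+/+ Tau+ libraries in 13 of the 35 genes, or 37.1%, beside 17.5% of all genes. It lay there in 8 of the 9 genes, all but Tfeb, but those 9 were called with this library in the group, so that count is a description only. Single libraries also decided calls. Without Ch25h+/+ Tau+ replicate 4 the genes that passed were Cd68, Grn and Laptm5, without Ch25h-/- Tau+ replicate 2 they were 5 (Hexa and Gusb added), and without Ch25h-/- Tau+ replicate 3 (Gusb added) or replicate 4 (Man2b1 added) they were 4.

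The microglia markers moved with this comparison too. Of the 12, 7 fell and 0 rose for Ch25h loss in Tau+, with a median of -0.50, among them C1qa (-1.54), Csf1r (-0.47) and Cx3cr1 (-0.43). P2ry12 (0.23) and Siglech (0.21) had values above 0 and did not pass. The part of these markers in the falls was not tested. Of the astrocyte markers Gfap (-1.96) and Aldoc (-0.33) fell.

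Ch25h loss in Tau- compares the Tau- groups. Of the 35 genes 0 passed in the edgeR quasi-likelihood test, against 1.03% of all genes. In that test 6 of the 35 had an unadjusted p under 0.05, against 3700 of 17736 genes tested. DESeq2 and limma-voom each called 1 of the 35, Psap, where they called 1133 and 1388 of all genes. Psap was at 1745, 1824, 1817 and 1731 CPM in Ch25h+/+ Tau- and at 1496, 1614, 1400 and 1672 CPM in Ch25h-/- Tau-. All Ch25h-/- libraries lay below the Ch25h+/+ libraries, with a log2 fold change of -0.20 and a standard error of 0.07 (edgeR quasi-likelihood test, adjusted p = 0.129), and of -0.09 after correction for GC content. Libraries were also separate and lower for Laptm5, Gusb, Neu1, Arsa and Tfeb, which with Psap makes 6 of the 35, against 8.58% of all genes. Gusb was at 18.1, 18.8, 16.4 and 17.1 CPM with Ch25h and at 14.8, 15.8, 12.5 and 13.3 CPM without it (log2 fold change -0.31, standard error 0.11). Cd68 had a log2 fold change of 0.01 with a standard error of 0.20, and Grn was at -0.08. The lowest value was -0.39 in Sgsh, the highest 0.19 in Asah1, and the pump genes were at -0.20 to 0.01. The median was -0.07 against 0.01 over all genes, and 11 of the 35 genes were above 0, against 51.4%. Every Ch25h-/- Tau- library is rRNA-rich and no Ch25h+/+ Tau- library is, so class and genotype cannot be told apart here.

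**Figure D5:**
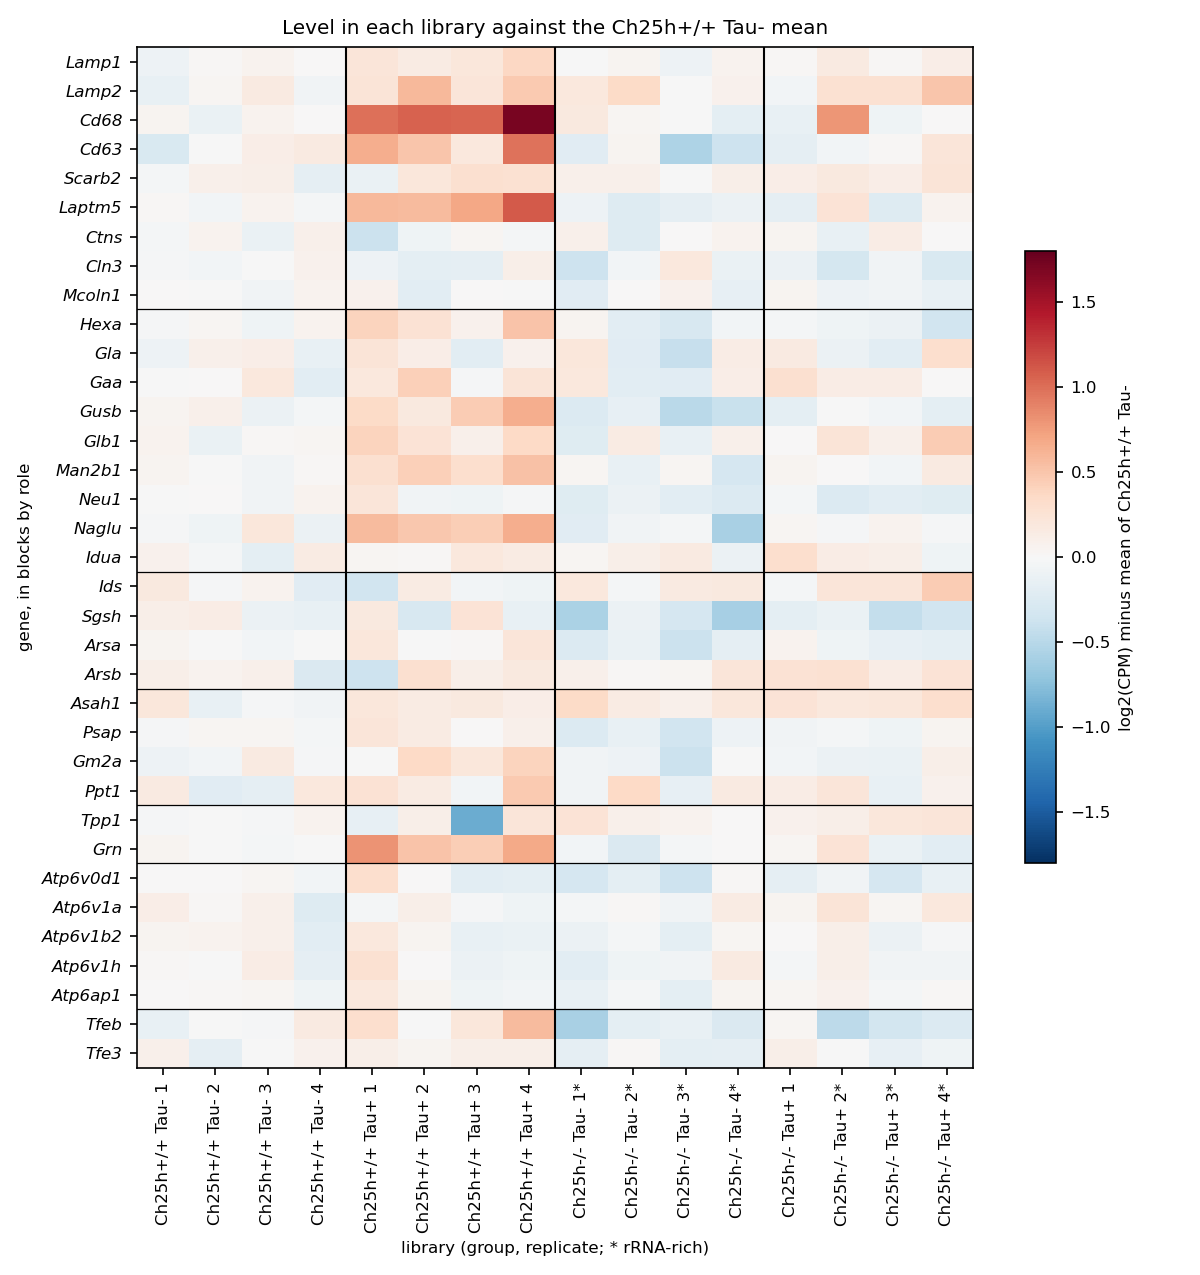
Log2 CPM of the 35 genes in each of 16 libraries minus the mean of Ch25h+/+ Tau-, with genes in blocks by role and an asterisk at the 7 rRNA-rich libraries. The deepest red is Cd68 in Ch25h+/+ Tau+ replicate 4, at 24.5 CPM, and Tpp1 in Ch25h+/+ Tau+ replicate 3, at 41.2 CPM, is the deepest blue.

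The interaction tests whether the tau effect differed between the genotypes. Of the 35 genes 0 passed in the edgeR quasi-likelihood test, and over all genes 0.0338% passed. Without Ch25h-/- Tau+ replicate 2, the library with 12.9 CPM, Cd68 passed. DESeq2 and limma-voom called 0. In the edgeR test unadjusted p-values were under 0.05 in 5 of the 35 genes, against 733 of 17736 genes tested. Grn had an interaction of -0.53 (standard error 0.14, unadjusted p = 0.00101, adjusted p = 0.281), Cd68 one of -1.05 (0.27, 0.00114 and 0.291) and Laptm5 one of -0.62 (0.16, 0.00126 and 0.299) in that test. The tau effects behind them were 0.62 and 0.08 for Grn, 1.23 and 0.18 for Cd68, and 0.75 and 0.14 for Laptm5, in Ch25h+/+ and Ch25h-/-. Without Ch25h-/- Tau+ replicate 2 the Ch25h-/- values were -0.01, -0.09 and 0.04 in that order, and the interactions -0.64, -1.33 and -0.73. Hexa (-0.33) and Man2b1 (-0.26) were the other 2 with an unadjusted p under 0.05. Among the pump genes the interaction furthest from 0 was 0.12, in Atp6v1a. Of the 12 microglia markers 11 had an interaction below 0, with a median of -0.46, and 7 had an unadjusted p under 0.05. C1qa passed, at -1.26 (edgeR quasi-likelihood test, adjusted p = 0.0222), and Fcrls was above 0, at 0.14. The part of these markers in the lysosome gene interactions was not tested.

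The wider lysosomal pathway was read in 73 further genes, of which 71 were tested. With tau in Ch25h+/+ 4 of the 71 rose, against 1.47% of all tested genes, and 0 fell. Among them Npc2, which carries cholesterol inside the lysosome, had 50.5 ± 1.21 CPM (SD, n = 4) without tau and 71.4 ± 7.65 with it, a log2 fold change of 0.50. Lgmn, an asparaginyl endopeptidase, had a log2 fold change of 0.33. Of 14 other pump subunit genes tested only Tcirg1, the V0 subunit a isoform of osteoclasts and macrophages, rose. It had 21 ± 2.39 CPM (SD, n = 4) without tau and 28.3 ± 3.51 with it (log2 fold change 0.43, edgeR quasi-likelihood test, adjusted p = 0.0435), and the median of the 14 was 0.02. The 20 other hydrolases and soluble proteins, which hold the other 3 genes that rose, were all above 0 with a median of 0.18, and libraries were separate and higher in 7 of them, against 3.89% of all genes. The 14 other membrane proteins had a median of -0.01, the 10 genes of sorting to the lysosome -0.04 and the 13 tested genes of TFEB family and mTORC1 control -0.01, and 0 of the genes in these last 3 lists passed.

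For tau in Ch25h-/- 0 of the 71 passed. For Ch25h loss in Tau+ 6 of the 71 fell, against 2.4% of all genes, and 0 rose. Among the 6 were Npc2 (-0.55), Tcirg1 (-0.58), Lgmn (-0.33), the acid DNase gene Dnase2a (-0.72) and the phospholipase gene Pla2g15 (-0.38), all from the fit without a covariate. With the covariate for library class 10 of all tested genes passed in this comparison, against 629 without it. For Ch25h loss in Tau- 1 of the 71 fell, near the 1.03% of all genes called, and with the covariate for library class 0 of all genes passed. The gene was Pla2g15, with 32.9 ± 1.68 CPM (SD, n = 4) in Ch25h+/+ and 24.6 ± 1.5 in Ch25h-/- (log2 fold change -0.42, edgeR quasi-likelihood test, adjusted p = 0.0338), and for the interaction 0 passed. Medians of the 71 were 0.03, 0.03, -0.07, -0.04 and -0.01 for tau in Ch25h+/+, tau in Ch25h-/-, Ch25h loss in Tau+, Ch25h loss in Tau- and the interaction.

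Reads could be shared where genes overlap, since the use of strand in counting is not given in the sources used here. In the GENCODE M21 annotation 24 of the 35 genes share no exon with another gene. Of the 9 genes that passed, Hexa shares 255 exon bases with Tmem202 (at most 1.82 CPM) and Grn 68 with Fam171a2 (at most 227 CPM), both on the opposite strand.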

How the data were processed

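The authors deposited 1 table of raw counts per gene symbol, with no normalization, for 16 libraries of frontal cortex per the labels. Per the submitters' processing notes reads were aligned with STAR 2.7 to GRCm38 (mm10), and the counting program and use of strand are not given in the sources used here. Genes were filtered with filterByExpr and tested two-sided by the quasi-likelihood test of edgeR 4.0.16 with TMM scaling (R 4.3.3), in 1 fit of 4 group means with 12 residual degrees of freedom, with Benjamini-Hochberg adjustment over 17736 genes at a threshold of 0.05. CPM used TMM-scaled library sizes. Positions and exon lengths came from GENCODE M21 (GRCm38) by symbol, which held 98.9% of the symbols, and promoter windows from RefSeq (GRCm38.p6). Members past the threshold are described in full, the others by role with the largest and smallest difference. Replicates were numbered in accession order and pair nothing. Alternatives were size factors by relative log expression, keeping every gene with a count, DESeq2 1.42.0, limma-voom (limma 3.58.1) with quality weights, a covariate for library class (rRNA-rich above 1000 CPM of CT010467.1), offsets against GC content (loess, span 0.5), a fit of only the 8 libraries compared, and leaving out each library. The fit was run on simulated counts with changes put into Ch25h+/+ Tau+ only and with no library class. That run therefore does not bear on how library class acts on the Ch25h loss comparisons. Members, gene lists and tests were chosen with earlier results of these data known. The values of 1 further pathway gene are not reported here.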

Additional observations from a re-analysis of the deposited data

Results flagged for a closer look

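In 140 sets of 4 libraries (35 genes in 4 groups), 10 had 1 library that stood far from the other 3, where chance gives about 1 in 20. Cd68 was flagged in both Tau+ groups, at 24.5 CPM in Ch25h+/+ Tau+ replicate 4 against 14.9 to 15.6 in the other libraries of its group, and at 12.9 CPM in Ch25h-/- Tau+ replicate 2 against 6.85 to 7.49. Atp6v1h was high in that second library, at 163 CPM against 146 to 149. Tfe3 was low in Ch25h+/+ Tau+ replicate 2, at 46.0 CPM against 47.7 to 47.8, and high in Ch25h-/- Tau- replicate 2, at 45.0 CPM against 39.2 to 39.9. The latter library was also low in Ids, at 458.5 CPM against 526 to 534. In Ch25h+/+ Tau- replicate 4 Arsb was low, at 38.7 CPM against 48.5 to 50.2, and Tpp1 high, at 80.3 CPM against 75.2 to 76.0. Neu1 was high in Ch25h+/+ Tau+ replicate 1, at 76.3 CPM against 62.4 to 64.3. Scarb2 was low in Ch25h-/- Tau- replicate 3, at 130.0 CPM against 139 to 140.4. No library was far from its group in more than 2 of the 35 genes. The causes were not tested.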

How the results depend on the processing

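No paired analysis was possible because the labels carry no replicate numbers. No gene that passed changed direction, but of all 35 genes 12 did in at least 1 alternative for tau in Ch25h+/+, 12 for tau in Ch25h-/-, 10 for Ch25h loss in Tau+, 19 for Ch25h loss in Tau- and 14 for the interaction. Over the fits without 1 library the log2 fold change for tau in Ch25h-/- ran from -0.0854 (without Ch25h-/- Tau+ replicate 2) to 0.272 in Cd68 and from -0.0135 (the same library) to 0.139 in Grn, and that of Tpp1 in Ch25h+/+ from -0.254 to 0.0677 (without Ch25h+/+ Tau+ replicate 3). The cause of each change below was not tested. With tau in Ch25h+/+ 5 of the 35 genes passed, with DESeq2 8, with limma-voom 9, and over the fits without 1 library 3 to 7. For Ch25h loss in Tau+ 9 passed, with the covariate for library class 0, with GC-corrected offsets 4, with only the 8 libraries compared 3, and over the fits without 1 library 3 to 9. For Ch25h loss in Tau- DESeq2 and limma-voom gave 1 each against 0, and for the interaction leaving out 1 library gave 0 to 1. Without Ch25h+/+ Tau+ replicate 4 both counts were 3. Cd68, Laptm5 and Grn kept their tau and loss calls in all 16 fits without 1 library, and with only the 8 libraries compared the loss call of Cd68 was lost.

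Over all genes, tau in Ch25h+/+ gave 277, limma-voom 498, and 160 to 299 without 1 library. Tau in Ch25h-/- gave 7, no filter 28, DESeq2 13, and leave-out fits 6 to 13. Ch25h loss in Tau+ gave 629, DESeq2 1478, limma-voom 1883, the class covariate 10, GC-corrected offsets 197, only the 8 libraries 106, and leave-out fits 108 to 1691. Ch25h loss in Tau- gave 182, no filter 522, DESeq2 1133, limma-voom 1388, the class covariate 0, GC-corrected offsets 12, only the 8 libraries 1229, and leave-out fits 3 to 1306. The interaction gave 6, no filter 57, DESeq2 49, the class covariate 3, and leave-out fits 0 to 22; a fit of only 8 libraries cannot hold it. With 4 libraries a group and standard errors of 0.07 to 0.20 for the tau effects, small differences were not detectable.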
